A study of Mus musculus with 12 samples.

Results

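The matrix metalloproteinases (MMPs) and the tissue inhibitors of metalloproteinases (TIMPs) were examined in the stomachs of mice that lack carbonic anhydrase IX. The set consisted of every array probe whose platform gene symbol was Mmp2, Mmp3, Mmp7, Mmp9, Mmp10, Mmp14, Timp1, Timp2, Timp3 or Timp4. The 10 genes, of 19406 named on the array, had 13 of its 46643 probes, and 10 of the 13 probes were bright enough to be tested, for 9 of the 10 genes. The set was taken up because Mmp10 and Timp1 were among the most consistent rises in Car9-/- stomach. The differences between genotypes at these probes are therefore given as a description, with no test.

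Total RNA of the stomach was measured in 6 wild-type mice and 6 Car9-/- mice of the C57BL/6 strain, with 3 males and 3 females in each group, and each RNA was put on an Illumina Mouse-6 array of its own. In Car9-/- mice the Car9 gene is disrupted in the germline by gene targeting. The wild-type mice were 8 to 12 months old and the Car9-/- mice 10 to 12 months. Signals are given on the log2 scale after quantile normalization, without background subtraction, so that a difference of 1 stands for a doubling of the signal and the differences of dim probes are understated. A probe counts as detected on an array where its detection p, against the negative controls of that array, was under 0.01.

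MMPs are zinc-dependent proteases that are secreted or held at the cell surface as inactive precursors, and together they can cleave most proteins of the extracellular matrix as well as cytokines, receptors and other proteases. TIMPs bind the active site of MMPs and block it, and some TIMPs also take part in the activation of a precursor. In the stomach and gut, MMPs and TIMPs are made by the epithelium, by fibroblasts and muscle of the wall and by immune cells, and they are best known from wound repair, ulcers, inflammation and tumours.

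The genes of several MMPs lie next to each other on mouse chromosome 9. Along that cluster the RefSeq order was Mmp13, Mmp12, Mmp1b, Mmp3, Mmp1a, Mmp10, Mmp8, Mmp27, Mmp20 and Mmp7. Many MMP promoters are known to hold a site for AP-1, the dimer of Fos and Jun proteins, shortly before the start of transcription. The promoter sequences of the cluster members of the set are shown for that reason, with a short stretch of the Timp1 gene, where a variant of the AP-1 letters stood just after the start. The sequences are from RefSeq on GRCm38.p6, all on the + strand, and cover chr9:7502212-7502341 for Mmp10, chr9:7445692-7445821 for Mmp3, chr9:7691960-7692089 for Mmp7 and chrX:20870181-20870209 for Timp1. The 3 Mmp sequences run over the 130 bases before the start, and the capitals mark TGAGTCA, or TGAGTAA in Timp1.
Mmp10: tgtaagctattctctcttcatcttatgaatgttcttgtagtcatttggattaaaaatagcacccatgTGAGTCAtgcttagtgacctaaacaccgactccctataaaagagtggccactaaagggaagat
Mmp3: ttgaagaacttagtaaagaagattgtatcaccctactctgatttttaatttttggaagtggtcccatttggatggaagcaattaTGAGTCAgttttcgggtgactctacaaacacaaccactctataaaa
Mmp7: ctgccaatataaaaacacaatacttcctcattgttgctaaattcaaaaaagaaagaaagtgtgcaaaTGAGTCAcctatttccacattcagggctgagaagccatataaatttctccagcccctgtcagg
Timp1: cggtgggtggaTGAGTAAtgcgtccagga

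The letters TGAGTCA were searched on both strands, as TGACTCA on the other, in windows of 250 bases before to 50 bases after each start. The table held 8 of the 10 genes, in 9 windows, and not Mmp2 and Mmp9. TGAGTCA was in the windows of 3 genes, at positions -63 to -57 of Mmp10, -46 to -40 of Mmp3 and -63 to -57 of Mmp7, and in 5.2% of all 32851 windows. TGAGTAA, which reads TTACTCA on the other strand, was at positions 27 to 33 of Timp1 and in 2.68% of all windows. These matches are a description of letters. The 3 genes with TGAGTCA behaved differently on the arrays, as described next: Mmp10 was higher in every Car9-/- stomach, the Mmp3 groups overlapped and Mmp7 was not detected.

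Over all tested probes, the data were analyzed with the empirical Bayes test of limma and Benjamini-Hochberg adjustment, with a threshold of 0.05 for the adjusted p. Of all 20751 tested probes, 5.34% were higher in Car9-/- mice at this threshold and 5.25% were lower, and the values of the genotypes did not overlap at 4.54%. Of the 10 tested Mmp and Timp probes, Mmp10 and Timp1 were past it on the higher side, Timp2 and Timp3 on the lower side, and 6 were not past it. The groups did not overlap at 3 probes, those of Mmp10, Timp1 and Timp3. The set was chosen on this same difference, so nothing is read from these counts. The median log2 difference was 0.13 over the 10 tested probes and -0.00068 over all tested probes.

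Some features of the samples bear on these values. The 2 Car9 probes were lower in Car9-/- mice, at 7.74 to 8.14 against 9.42 to 9.79 for probe 2340128, and 7.46 to 8.29 against 9.06 to 9.38 for probe 50278. The arrays had 18141 to 20276 detected probes and correlated with each other at 0.935 to 0.991. The stomach markers Atp4a and Atp4b, the subunits of the parietal cell proton pump, were detected on all arrays. The stomachs differed in the signals of marker genes of neighbouring tissues. Whether these signals came from such tissue or from the stomach itself was not tested. Genes of stratified squamous epithelium, the lining of the mouse forestomach, were at their lowest in wild-type mice 4, 5 and 6 and Car9-/- mice 1 and 6, and genes of exocrine pancreas were highest in wild-type mice 4 and 6. In whole tissue, fewer cells of a type and less RNA per cell cannot be told apart.

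Mmp10, or stromelysin-2, a secreted protease with a broad range of matrix substrates that also activates other MMP precursors, showed the widest gap between the genotypes in the set. The log2 signal of probe 7100707 was 6.85 at the lowest, 6.91 at the median and 7.01 at the highest in wild-type mice, and 8.01, 8.62 and 9.37 in Car9-/- mice. All Car9-/- mice lay above all wild-type mice, and the wild-type values were spread over a much narrower range than the Car9-/- values. The wild-type signals were dim, and without background subtraction their spread is understated as well. Car9-/- mouse 4, a male, was the highest and Car9-/- mouse 6, a female, the lowest of its group. The log2 difference was 1.72 (standard error 0.17), a 3.30-fold higher signal. With background correction by neqc it was 2.43, or 5.39-fold. The probe was detected on all 12 arrays.

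Mmp3, or stromelysin-1, the closest relative of Mmp10 in the set, was near the limit of detection. At probe 2650368 the log2 signal was 6.28, 6.46 and 6.85 in wild-type mice (lowest, median, highest) and 6.44, 6.90 and 7.18 in Car9-/- mice. The groups overlapped, although 4 Car9-/- mice were above all wild-type mice. The probe was detected on 1 of 6 wild-type arrays and 5 of 6 Car9-/- arrays. It thus entered the tested probes through the Car9-/- arrays. The log2 difference was 0.36 (standard error 0.13), and it was 0.74 with neqc. A second probe, 2970056, gave 0.06 (standard error 0.08) and was detected on 3 and 4 of 6 arrays, so the Mmp3 probes differed in the size of their difference. Mmp7, or matrilysin, a small MMP of secretory epithelium, was detected on 0 of 12 arrays at probe 1780497, with log2 signals of 5.81 to 6.24, and was not tested.

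**Figure D1:**
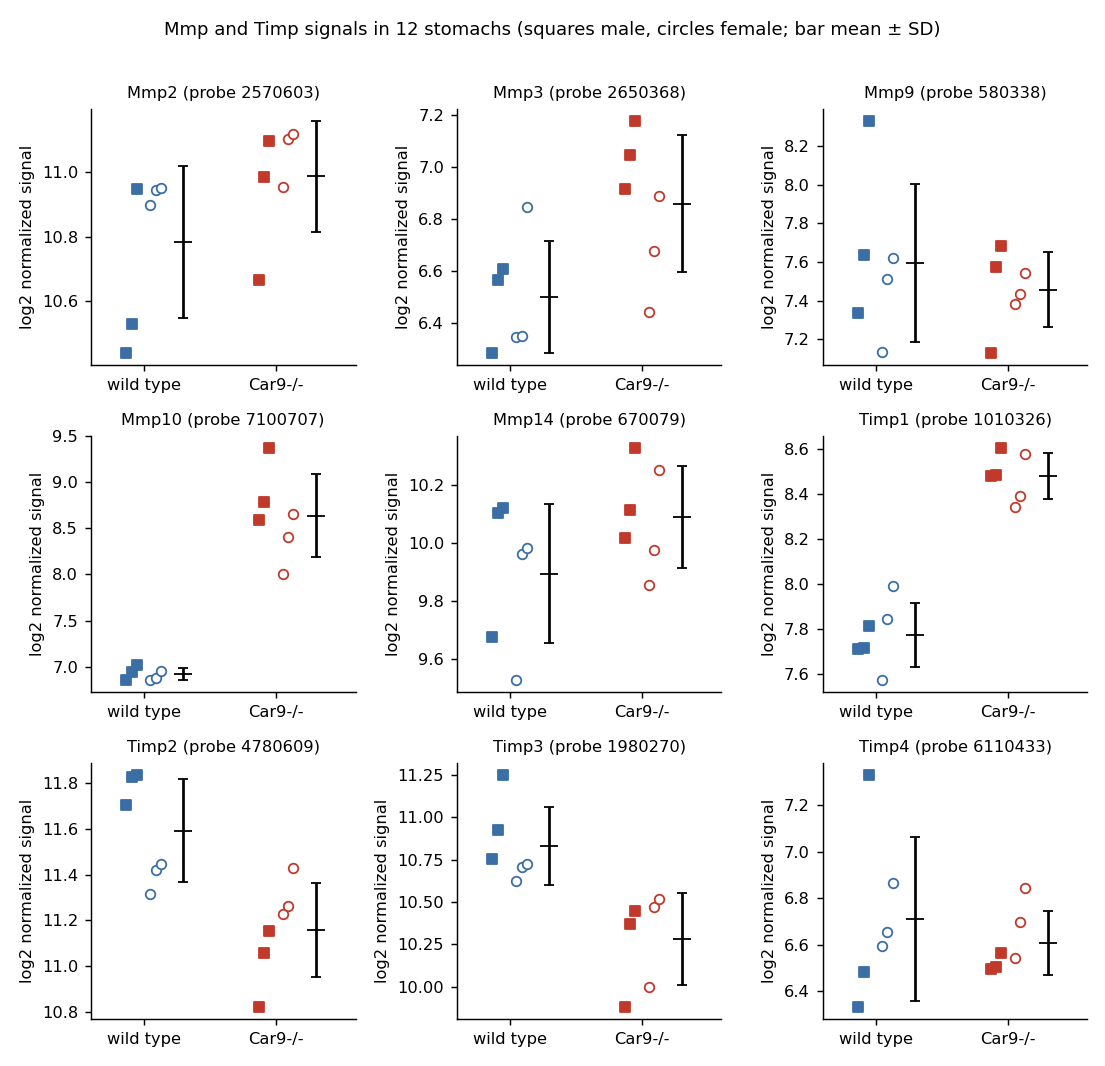
Log2 normalized signal (y axis, a scale of its own for each gene and not starting at 0) of the probe that stands for each of the 9 tested genes, for wild-type (blue) and Car9-/- (red) mice, with squares for males, circles for females and bars for the mean ± SD of 6 mice. The genotypes are fully apart for Mmp10, Timp1 and Timp3 and overlap for the other genes.

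The gelatinases, which degrade denatured collagen and basement membrane collagen, overlapped between the genotypes. Mmp2, or gelatinase A, made mainly by stromal cells, was at 10.44, 10.92 and 10.95 in wild-type mice and 10.66, 11.04 and 11.12 in Car9-/- mice on the log2 scale. Most mice of both genotypes lay close together, while wild-type mice 1 and 4 and Car9-/- mouse 1 were lower. Car9-/- mice differed from wild-type mice by 0.20 (standard error 0.11). Mmp9, or gelatinase B, known from neutrophils and macrophages, was at 7.13, 7.57 and 8.33 in wild-type mice and 7.13, 7.49 and 7.68 in Car9-/- mice. The highest value was that of wild-type mouse 4, and the other values covered nearly the same range in both genotypes, with a log2 difference of -0.14 (standard error 0.17), which became 0.01 without wild-type mouse 4.

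Mmp14, or MT1-MMP, is anchored in the membrane and activates the Mmp2 precursor at the cell surface, in a complex with Timp2. At probe 670079 its log2 signal was 9.53, 9.97 and 10.12 in wild-type mice and 9.86, 10.07 and 10.33 in Car9-/- mice. The groups overlapped, with a log2 difference of 0.20 (standard error 0.12). A second probe of the gene, 105700121, was detected on no array and was not tested. Mmp2 and Mmp14 were detected on all 12 arrays.

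The inhibitors differed in direction. Timp1, an inducible secreted inhibitor of most MMPs that also binds the Mmp9 precursor, was at 7.57, 7.77 and 7.99 in wild-type mice and 8.34, 8.48 and 8.61 in Car9-/- mice on the log2 scale. All Car9-/- mice were above all wild-type mice, and both groups were narrow. The log2 difference was 0.70 (standard error 0.08), a 1.63-fold higher signal, and 0.89 with neqc. The Car9-/- mouse with the highest Timp1 signal, mouse 4, was also the one with the highest Mmp10 signal, and mouse 6 was the lowest for both.

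Timp3, which is bound to the matrix and also inhibits Adam17 and several Adamts proteases, was lower in each Car9-/- mouse than in any wild-type mouse. Its log2 signal at probe 1980270 was 10.62, 10.74 and 11.25 in wild-type mice and 9.88, 10.41 and 10.52 in Car9-/- mice. The gap was small, with Car9-/- mouse 3 at 10.52 and wild-type mouse 6 at 10.62. On the log2 scale the difference was -0.55 (standard error 0.13), a 1.46-fold lower signal. A second probe, 1450504, was detected on 1 wild-type array only and was not tested.

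Timp2, which is made constitutively by stromal cells, was at 11.32, 11.58 and 11.84 in wild-type mice and 10.82, 11.19 and 11.43 in Car9-/- mice on the log2 scale. The groups overlapped through Car9-/- mouse 5, and the other 5 Car9-/- mice lay below all wild-type mice. The log2 difference was -0.43 (standard error 0.12), a 1.35-fold lower signal. It was no longer past the threshold when any one of 7 mice was left out (wild-type mice 1, 2 and 4 and Car9-/- mice 1, 2, 3 and 4), with log2 differences of -0.49 to -0.37 over all 12 mice left out in turn. With median scaling of the arrays in place of quantile normalization, the log2 differences of Timp2 and Timp3 were -0.17 and -0.31, and neither was past the threshold. Timp4, an inhibitor with a narrower tissue distribution, was detected on 3 of 6 arrays of each genotype. Its log2 signal was 6.33, 6.62 and 7.33 in wild-type mice, with wild-type mouse 4 at the top, and 6.50, 6.55 and 6.85 in Car9-/- mice, and the groups differed by -0.10 (standard error 0.14), or by 0.02 without wild-type mouse 4.

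**Figure D2:**
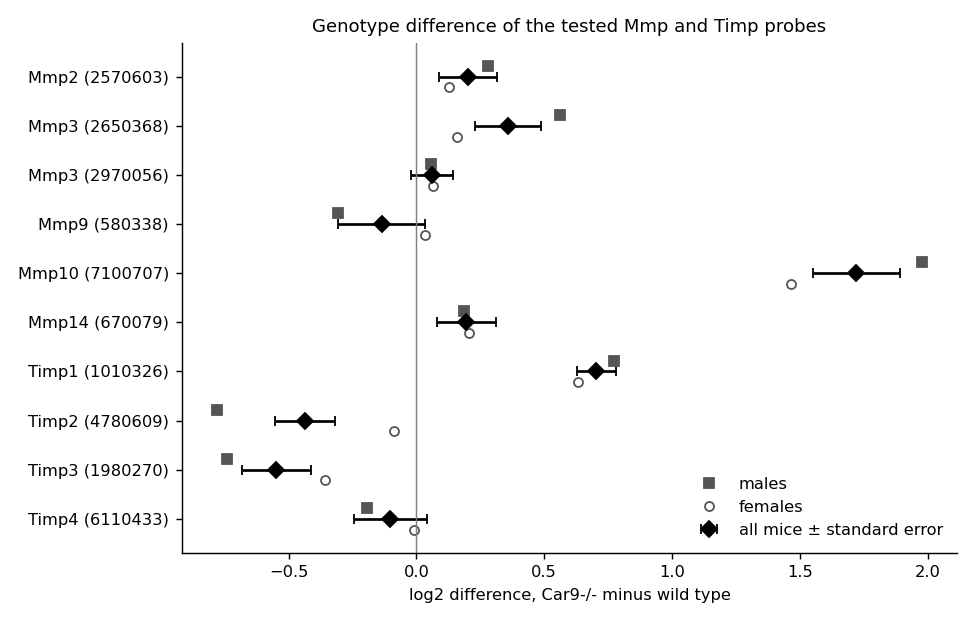
Log2 difference, Car9-/- minus wild type (x axis), of the 10 tested probes, with diamonds and bars for all mice ± standard error, squares for the 3 against 3 males and circles for the 3 against 3 females. Mmp10 lies farthest to the right at 1.72 and Timp3 farthest to the left at -0.55, and for Timp2 the males and females lie far apart.

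Sex was not used to choose the genes, and the groups were balanced for it, so females and males could be tested. None of the 10 probes differed between the sexes with limma (smallest adjusted p = 0.9997), where 0.0241% of all tested probes did. The smallest unadjusted p was that of Mmp2, which was 0.22 higher in females on the log2 scale (standard error 0.10, unadjusted p = 0.049 from limma). It was the only one of the 10 probes with an unadjusted p under 0.05, and 4.54% of all tested probes had one. Mmp10 was 0.30 lower in females (standard error 0.15), which did not pass, and its values were 8.59 to 9.37 in Car9-/- males and 8.01 to 8.65 in Car9-/- females. In wild-type mice the corresponding ranges were 6.86 to 7.01 and 6.85 to 6.96.

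Whether the genotype difference itself differed between the sexes was tested as an interaction. No Mmp or Timp probe passed (smallest adjusted p = 0.172 from limma), and 0.0145% of all tested probes did. The smallest p belonged to Timp2. In males, Timp2 was at 11.71 to 11.84 in wild-type and 10.82 to 11.15 in Car9-/- mice, without overlap. In females, it was at 11.32 to 11.45 in wild-type and 11.23 to 11.43 in Car9-/- mice, and these ranges overlapped. The difference between genotypes was -0.78 in males and -0.09 in females on the log2 scale, and the interaction was 0.69 (standard error 0.14, unadjusted p = 0.0005 from limma). Of all tested probes, 9.25% had an unadjusted interaction p under 0.05, and of the 10 probes only Timp2 did. The males and females of each genotype numbered 3, which limits what this test can show.

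Mmp10 and Timp1 were set beside the signals of tissue markers. For each mouse, the level of a marker list was computed by averaging the log2 signals of its tested genes, each centred over the 12 mice. The squamous epithelium list, headed by the basal keratins Krt5 and Krt14, had 14 tested genes, of which 1 rose with limma (Ly6d) and none fell. The log2 difference was positive for 13 of the 14 genes, with a median of 1.38. Krt5 and Krt14 themselves were detected on 3 wild-type and 4 Car9-/- arrays. The level of the list ranged from -2.43 to 2.71 in wild-type mice (mean -0.50) and from -1.997 to 2.55 in Car9-/- mice (mean 0.50). Wild-type mouse 2 had the highest level, with an Mmp10 signal of 6.86 and a Timp1 signal of 7.82. Car9-/- mice 1 and 6 had low levels of -1.997 and -1.989, with Mmp10 signals of 8.79 and 8.01 and Timp1 signals of 8.48 and 8.34. With this level as a covariate the log2 difference was 1.68 for Mmp10 and 0.68 for Timp1. The genotypes do not overlap for Mmp10 and Timp1, so such comparisons of single mice were fixed in advance. The part of squamous epithelium in these differences was not tested.

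Exocrine pancreas genes were lower in Car9-/- mice, and here the groups did not overlap. The level was -0.54 to 3.45 in wild-type mice and -1.59 to -0.66 in Car9-/- mice, and 3 of 10 tested genes fell with limma and none rose. The trypsins Prss1 and Try4 were detected on all 12 arrays, with log2 differences of -3.40 (standard error 0.49) and -3.60 (standard error 0.55). A second Prss1 probe, at -1.27, did not pass. When this level was added to the fit, 18 probes lay past the threshold on the higher side and 5 on the lower side over the whole array. Without it the numbers were 1108 and 1089. Since the level did not overlap between the genotypes, genotype and level are poorly told apart in this fit. Mmp10 and Timp1, for whose rises the set was chosen, were among the 18, with log2 differences of 1.68 (standard error 0.25) and 0.74 (standard error 0.11). Without wild-type mice 4 and 6 the differences were 1.75 and 0.74. Adipose tissue genes had levels of -1.33 to 2.84 in wild-type and -1.13 to -0.08 in Car9-/- mice, and 0 of 3 tested genes passed in limma. Adipoq, a hormone of fat cells, had a log2 difference of -1.90 (standard error 0.83).

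Timp2 and Timp3 were set beside the muscle of the wall. With 1 probe per gene, none of the 8 smooth muscle genes passed in limma, but all 8 had a negative log2 difference, with a median of -0.43. The level was -0.14 to 0.71 in wild-type and -0.71 to 0.09 in Car9-/- mice. Acta2, smooth muscle actin, had a log2 difference of -0.21 (standard error 0.08) at its brightest probe and Myh11, smooth muscle myosin, -0.73 (standard error 0.22). The other 3 tested Acta2 probes gave -0.85, which passed (adjusted p = 0.036 from limma), -0.94 and -0.28. Car9-/- mouse 1 had the lowest smooth muscle level and the lowest Timp2 and Timp3 signals, and wild-type mouse 1 was highest in all of these. With the smooth muscle level as a covariate, a setting chosen after seeing the data, the log2 difference was -0.38 for Timp2 and -0.31 for Timp3, and neither was past the threshold. Over the whole array this setting left 565 probes higher and 537 lower, against 1108 and 1089 without it. With the exocrine pancreas level in the fit the log2 difference was -0.32 for Timp2 and -0.64 for Timp3, and again neither was past the threshold. The part of muscle, pancreas and fat in the differences of Timp2 and Timp3 was not tested beyond these settings.

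**Figure D3:**
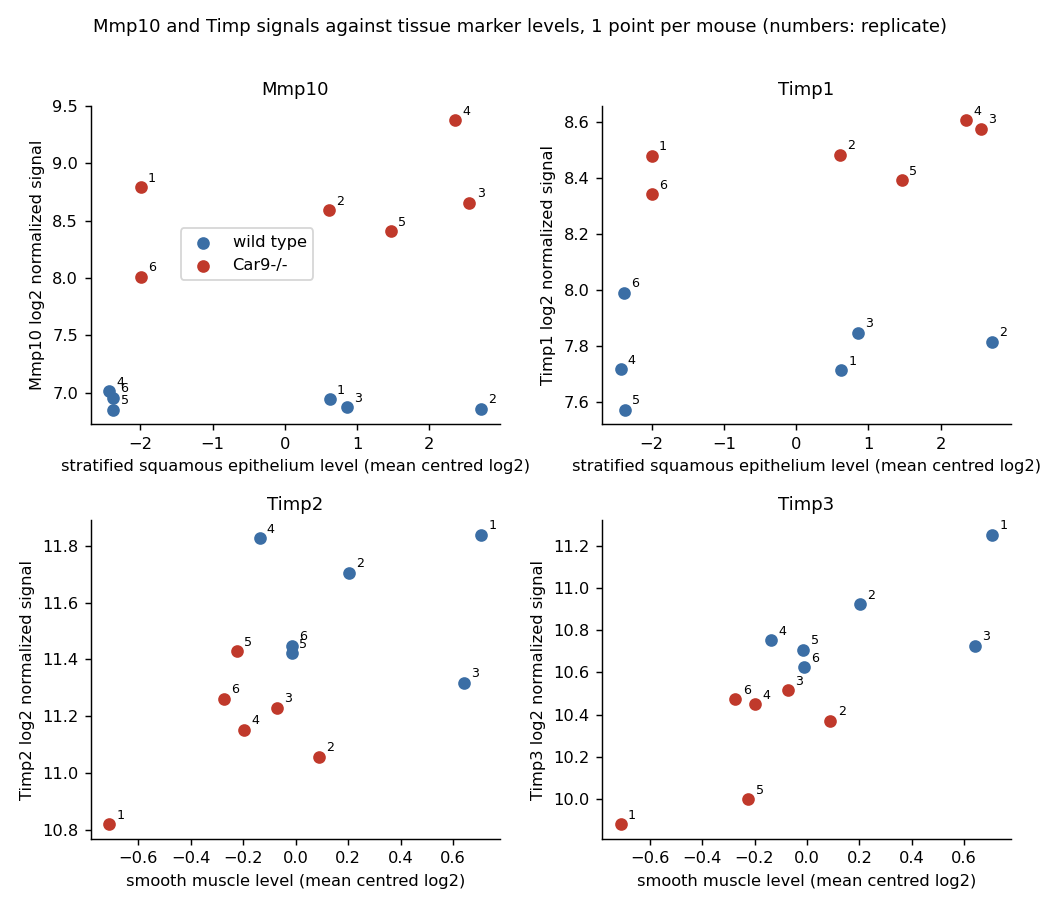
Log2 normalized signal of Mmp10 and Timp1 against the stratified squamous epithelium level, and of Timp2 and Timp3 against the smooth muscle level, in log2 units centred over the mice, with 1 point per mouse and its replicate number beside it. For Mmp10 and Timp1 all Car9-/- mice (red) lie above all wild-type mice (blue), so they do so at any squamous level. Car9-/- mouse 1, at -0.71, has the least smooth muscle signal and the least Timp2 and Timp3.

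Other cell types that make MMPs and TIMPs were described by their markers. The macrophage list had 7 tested genes, with levels of -0.46 to 0.66 in wild-type and -0.49 to 0.25 in Car9-/- mice. Cd14, the lipopolysaccharide co-receptor, rose by 0.54 on the log2 scale (standard error 0.12, adjusted p = 0.014 from limma), and the other 6 did not pass. Across the list only 2 of the 7 genes had a positive log2 difference, and the median was -0.09. Of the neutrophil list, 4 of 9 genes were bright enough to test and none passed. Its first genes, S100a8 and S100a9, had log2 differences of 0.78 (standard error 0.62) and 0.64 (standard error 0.55), and Ngp, Elane and Mpo were detected on no array. The neutrophil level was -1.08 to 1.00 in wild-type and -1.21 to 1.89 in Car9-/- mice, with Car9-/- mouse 4, the highest for Mmp10, at 1.89 and Car9-/- mouse 6, the lowest, at -1.21. The part of neutrophils in the Mmp10 signal was not tested.

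Of 7 tested mast cell genes, 3 rose and 1 fell. Cpa3, a mast cell carboxypeptidase, rose by 0.96 (standard error 0.27, adjusted p = 0.041 from limma), while its other probe, at 0.42, did not pass, and Mcpt1, a mucosal mast cell protease, by 0.69 (standard error 0.11, adjusted p = 0.0045 from limma). Mcpt1 was detected on 1 wild-type array and 6 Car9-/- arrays, so it entered the tested genes through the Car9-/- arrays. Kit, a receptor also found on other cells of the gut wall, fell at its brightest probe. Its other tested probe, at -0.17, did not pass. The mast cell level was -0.49 to 0.13 in wild-type and -0.0021 to 0.24 in Car9-/- mice. None of the 8 fibroblast genes passed in limma, and the level was -0.13 to 0.14 in both genotypes. Pdgfra and Dcn, which mark fibroblasts, had log2 differences of -0.04 and -0.15. Of 6 endothelial genes 2 fell, among them Pecam1, by 0.36 (adjusted p = 0.035 from limma), and the level was -0.05 to 0.33 in wild-type and -0.27 to 0.01 in Car9-/- mice. Of 10 genes of gastric glands and pits 1 rose, which was Muc5ac at its brightest probe only, and Atp4a and Atp4b had log2 differences of -0.34 and -0.03 and did not pass. For small intestinal Paneth cells, which make Mmp7 in mice, only Lyz1 could be tested, with a log2 difference of -0.09, and Defa20 and Itln1 were detected on no array.

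The genes around the set were counted with 1 probe per gene, the brightest tested one. Of all 11704 genes tested in this way, 5.91% were higher and 7.06% lower in Car9-/- mice. These pathway lists were put together with earlier results of these data known. Of 17 other Mmp genes, 15 had a probe and 7 were tested, and only Mmp13 passed. Mmp13, or collagenase 3, the main interstitial collagenase of the mouse and a neighbour of Mmp3 and Mmp10 on chromosome 9, rose from 7.28 ± 0.24 (SD, n = 6) to 7.98 ± 0.17 (SD, n = 6) on the log2 scale. All Car9-/- mice were above all wild-type mice. Its log2 difference was 0.70 (standard error 0.11, adjusted p = 0.0056 from limma), a 1.62-fold higher signal. The other 6 tested genes had log2 differences of -0.27 (Mmp17, a membrane-type MMP) to 0.28 (Mmp28, or epilysin) and did not pass. The Mmp28 probe was detected on no wild-type array and on 5 Car9-/- arrays, so it was tested through Car9-/- arrays only. Within the chromosome 9 cluster, Mmp13 and Mmp10 were detected on all arrays and Mmp3 on some, Mmp12, the macrophage elastase, on 1 Car9-/- array, and Mmp1a, Mmp1b, Mmp7, Mmp8 and Mmp20 on none.

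The activators, receptors and other inhibitors of MMPs changed in both directions. Of 17 tested genes, 2 rose and 2 fell, and the median log2 difference was -0.09. Plaur, the urokinase receptor, which holds the plasminogen activator at the cell surface, rose from 7.91 ± 0.56 (SD, n = 6) to 8.87 ± 0.27 (SD, n = 6), by 0.96 on the log2 scale (standard error 0.23, adjusted p = 0.021 from limma). Of the Car9-/- mice, 3 were above all wild-type mice. Without Car9-/- mouse 4 the Plaur difference was 0.88 and no longer past the threshold (adjusted p = 0.052 from limma). Bsg, or EMMPRIN, a membrane protein known to induce MMPs in neighbouring cells, rose by 0.26 (standard error 0.07, adjusted p = 0.033 from limma), and its other tested probe, at 0.19, did not pass. The Bsg call was lost when any one of 8 mice was left out (wild-type mice 1, 2, 4, 5 and 6 and Car9-/- mice 1, 2 and 4), with log2 differences of 0.23 to 0.30 over all leave-outs. Plau, or urokinase, had a log2 difference of 0.24 (standard error 0.16) and did not pass.

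Furin and Reck fell. Furin, a proprotein convertase that activates Mmp14 and Adam precursors inside the cell, fell from 9.55 ± 0.55 (SD, n = 6) to 8.34 ± 0.54 (SD, n = 6), by 1.21 on the log2 scale (standard error 0.28, adjusted p = 0.020 from limma), and 5 Car9-/- mice were below all wild-type mice. Reck, a membrane-anchored inhibitor of Mmp2, Mmp9 and Mmp14, fell by 0.57 (standard error 0.11, adjusted p = 0.0084 from limma). All Car9-/- mice were below all wild-type mice for Reck. The calls of both were lost with the smooth muscle level as a covariate, at -0.87 for Furin and -0.42 for Reck, with the exocrine pancreas level, at -1.22 and -0.69, and with the replicate block, at unchanged differences. In each of these settings the calls over the whole array also became fewer.

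Of the 12 tested Adam, Adamts and meprin genes, which are related metalloproteases, 2 rose and none fell, with a median log2 difference of 0.19. Adam28, a disintegrin protease known from lymphocytes and epithelia, rose by 1.02 (standard error 0.15, adjusted p = 0.0041 from limma), and its other 2 tested probes also passed, at 0.33 and 0.99. Adam10, a major shedding enzyme of membrane proteins, was detected on no wild-type array and on 5 of 6 Car9-/- arrays. It entered the tested genes through Car9-/- arrays only, so its call is given as a description. Its log2 difference was 0.30 (adjusted p = 0.0056 from limma), and the signal was at least 1.03-fold higher, where the wild-type level is bounded on each array by the lowest signal among detected probes or by the probe's own, whichever was higher. Of 24 matrix proteins that MMPs cleave, 1 fell and none rose, and the median was -0.03. This was Lamb2, a laminin of basement membranes, with a log2 difference of -0.43 (standard error 0.12, adjusted p = 0.045 from limma). The Lamb2 call was lost when any one of 9 mice was left out (all but wild-type mice 5 and 6 and Car9-/- mouse 5), with log2 differences of -0.49 to -0.34.

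Among the cytokines and transcription factors known to induce MMP genes, 3 of 20 rose and 1 fell, with a median log2 difference of 0.28. Il11, a cytokine of the interleukin-6 family, was detected on no wild-type array and on all 6 Car9-/- arrays. Like Adam10, it entered the tested genes through Car9-/- arrays only, so its call is given as a description. Its log2 difference was 0.60 (standard error 0.10, adjusted p = 0.0059 from limma), and its signal was at least 1.24-fold higher. Ets2, a transcription factor that acts beside AP-1 on several MMP promoters, rose by 0.31 (standard error 0.07, adjusted p = 0.019 from limma). Il1b, or interleukin-1 beta, rose by 0.78 (standard error 0.22, adjusted p = 0.041 from limma). The Il1b call was lost when any one of 9 mice was left out (all but wild-type mouse 5 and Car9-/- mice 3 and 5), with log2 differences of 0.64 to 0.91. Tgfb3, a growth factor of the TGF-beta family, fell by 0.45 (standard error 0.09, adjusted p = 0.012 from limma). The AP-1 genes Fos and Jun had log2 differences of 0.48 and -0.03 and did not pass. When the level of exocrine pancreas genes was added to the fit, none of the 73 pathway genes passed in limma, against 7 that rose and 4 that fell without it. Over the whole array this fit left 18 probes higher and 5 lower, against 1108 and 1089. The level did not overlap between the genotypes, so genotype and level are poorly told apart in this fit. The log2 differences were then 0.82 for Adam28, 0.28 for Adam10, 0.51 for Il11, 0.44 for Mmp13, 0.41 for Plaur, 0.19 for Ets2, 0.23 for Bsg, 0.78 for Il1b, -0.33 for Tgfb3 and -0.57 for Lamb2, all in the same direction as without this level.

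The genes most like Mmp10 and Timp1 were found by the correlation over the 12 mice after the mean of each genotype was taken off each value, so that the difference between genotypes did not count. For Mmp10 these were Stx11 (Pearson r = 0.86), Fam122b (0.86), Ythdf3 (0.85), 1810037I17Rik (0.83) and Galnt1 (0.83). For Timp1 they were Osr2 (0.91), Mgst1 (0.88), Itgbl1 (0.86), Rab34 (0.86) and Pigr (0.86). These are the highest of all named probes over 12 mice that share their arrays and tissue content, and no test was made of them. The SD of Mmp10 was 0.065 in wild-type and 0.45 in Car9-/- mice, so its correlations rest mainly on the 6 Car9-/- mice. Between the Mmp and Timp genes themselves, 72 correlations were computed, 36 pairs within each genotype of 6 mice. None passed after Benjamini-Hochberg adjustment in exact permutation tests (smallest adjusted p = 0.72 for Pearson's r and 0.60 for Spearman's rho). For Mmp10 and Timp1 in Car9-/- mice, Pearson's r was 0.88 (p = 0.014, adjusted p = 0.72, exact permutation test) and Spearman's rho 0.83 (p = 0.058, adjusted p = 0.74), and r was 0.61 without the 2 mice farthest from the median of Mmp10. In wild-type mice Pearson's r of this pair was 0.18 (p = 0.75, exact permutation test) and Spearman's rho 0.37 (p = 0.50).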

How the data were processed

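Per the labels and the study's methods, total RNA of stomach body specimens was labelled with biotin and hybridized to Illumina Sentrix Mouse-6 arrays. The authors deposited BeadStudio signal intensities on a linear scale, neither normalized nor background-subtracted, with detection p-values, and also log2 values quantile-normalized in Chipster. Here the intensities were log2-transformed and quantile-normalized. The result lay within 0.0224 of the authors' log2 values. A probe was tested where its detection p was under 0.01 on 3 or more of the 12 arrays, which kept 20751 of 46643. The models (genotype, genotype with sex, and their interaction) were fitted with limma 3.58.1 under R 4.3.3, with Benjamini-Hochberg adjustment over all tested probes, and were tested on simulated data. Median intensities were 75.6 to 101.4, and the number of arrays limits the precision. Of the probes, 32794 had 1 gene symbol, 55 several and 13794 none, and only probes with 1 were named.

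The genes and lists were chosen with earlier results of these data known. The text names the 10 genes with every probe, Car9, up to 4 genes past the threshold of each pathway list (largest limma statistic), the first 2 genes of a marker list where the array names them, and the 5 genes most correlated with Mmp10 and with Timp1. Other genes were chosen after their values were seen. Nothing says that the mice came from separate litters or cages, so p-values measure the spread between these mice. Alternatives were neqc (offset 16), the authors' values, median scaling, other probe filters, sex and age, a replicate block, array weights, an intensity trend, tissue levels as covariates, wild-type mice 4 and 6 left out, the probe with the lowest p, and each mouse left out. Figures were drawn with matplotlib 3.10.9.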

Additional observations from a re-analysis of the deposited data

Results flagged for a closer look

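A sample was looked for that lay far from the other 5 of its genotype, by the gap to its nearest neighbour as a share of the whole range (Dixon's criterion at the 95% level). Of 50 probe groups 2 met it, and chance gives about 1 in 20. Car9-/- mouse 1 had the lowest Mmp2 signal of its group, at 10.66 on the log2 scale with the next at 10.95, a gap of 0.637 of the range. The same mouse had the lowest smooth muscle level and the lowest Timp2 and Timp3 signals. Wild-type mouse 3 was at 6.185 at Timp3 probe 1450504, with the next at 6.49 and a gap of 0.759 of the range. This probe was detected on 1 of the 12 arrays and was not tested.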

How the results depend on the processing

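The log2 differences of Mmp10 (1.57 to 2.43) and Timp1 (0.66 to 0.89) kept their direction and their side of the threshold under all 16 alternatives and with each of the 12 mice left out. The set was taken up because these rises were consistent, so their stability is a description and no support. Timp3 kept its side in 12 of 16 alternatives and in all 12 leave-outs, and Timp2 in 9 of 16 and 5 of 12; both stayed lower. No difference past the threshold reversed. Mmp9 and Timp4, which were not past it, kept their sign in 13 of 16 alternatives each and reached 0.25 and 0.29 with the exocrine pancreas level; both were also above 0 without wild-type mouse 4. The number of Mmp and Timp probes higher was 2 and rose to 4 with median scaling, and was 2 to 3 with a mouse left out. Mmp3 was also past the threshold on the higher side with array weights and without Car9-/- mouse 5. The number lower was 2; it was 0 with median scaling, the replicate block, the exocrine pancreas level or the smooth muscle level, 1 with all probes tested, the adipose level or without wild-type mice 4 and 6, and 1 to 2 with a mouse left out. Among other Mmp genes 1 was higher and 0 lower; it was 3 with median scaling, 2 higher and 1 lower with sex and age, 0 with the pancreas level, and 1 to 2 higher with a mouse left out. The pathway lists had 7 genes higher and 4 lower; this became 18 and 2 with median scaling, 2 and 1 with the replicate block, 12 higher with array weights, 0 and 0 with the pancreas level, 3 higher with the adipose level, 0 lower with the smooth muscle level and 4 higher without wild-type mice 4 and 6, and 4 to 9 higher and 3 to 4 lower with a mouse left out, the 4 higher without Car9-/- mouse 4. The causes of these changes were not tested. Calls over the whole array moved as well, from 1108 higher and 1089 lower. They were 484 and 464 with the adipose level, and 565 and 537 with the smooth muscle level. Without wild-type mice 4 and 6 they were 457 and 506, and with array weights 1918 and 1886. With the pancreas level they were 18 and 5, and without Car9-/- mouse 4 they were 653 and 551. For the sex difference and the interaction, 0 probes passed in limma in each setting these tests were run in, and they were not run with the replicate block, the tissue levels, sex alone as a covariate or the probe with the lowest p; without adjustment, 1 of the 10 probes had a p under 0.05 in each of the 2 tests.

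With median scaling the median log2 difference over all tested probes was 0.113, and 3585 probes were called higher and 426 lower over the array, against 1108 and 1089. Mmp2 and Mmp14 passed on the higher side only there, at 0.45 and 0.44. The labels do not say whether the replicate numbers pair the mice. Mice of the same number had the same sex. Their deviations from the genotype means correlated above 0.1 for 1 of 6 numbers (0.50 for number 6), which cannot settle whether they were paired. With the replicate block 251 probes were higher and 210 lower over the array. The smooth muscle level was added as an alternative after seeing the data. Probes near background, Mmp3, Mmp7 and Timp4 among them, give only understated differences, and which arrays shared a chip was not used here.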
